A study of Mus musculus with 9 samples.

Results

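The genes described here mark the endothelial cells that line the blood and lymphatic vessels and the chambers of the heart. Of 35 named genes, 34 had a probe set listed for that gene alone on the array, among 22180 genes measured in this way. *Rasip1*, which acts on endothelial junctions and lumen formation, was the exception, because its probe set is shared with *Izumo1*. The members were taken by name and none was filtered by its values, but the list was drawn up with earlier results of these data known. Of several probe sets for a gene, the brightest on average was used.

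Hearts of neonatal mice at postnatal day 2 on a mixed 129 x C57BL/6 background were profiled, with 3 arrays for each of 3 genotypes. Wild-type hearts (replicates 1 to 3) were compared with *miR-1-1* null hearts (replicates 4 to 6), and with double-heterozygous hearts, which are *miR-1-1*+/- and *miR-1-2*+/- (replicates 7 to 9). In the null, the *miR-1-1* precursor is replaced by a neomycin resistance gene in every cell of the body, and *miR-1-2* is intact. The double-heterozygous hearts lack 1 copy of each precursor. The labels do not say which hearts came from the same litter, nor whether an array holds 1 heart or a pool, so the p-values below measure only the spread between these arrays.

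*miR-1* is a microRNA of cardiac and skeletal muscle, made from a pair of loci together with *miR-133a*, and endothelial cells are not its usual site of expression. Endothelial cells are held together by VE-cadherin and claudin junctions, grow in response to vascular endothelial growth factor (VEGF) and angiopoietins, and owe their identity to transcription factors of the ETS and SoxF families. In the neonatal heart the capillary bed and the lymphatics are still expanding alongside the growing muscle. The values below come from whole hearts, in which fewer endothelial cells and less RNA per endothelial cell cannot be told apart. Some members are also made by other cells of the heart, such as *Prox1* and *Nrp1* by cardiomyocytes, *Cav1* by many cell types and *Vwf* and *Mmrn1* by platelets.

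All values are log2 expression levels after RMA, a procedure that corrects background, equalises the distribution of signals between arrays and summarises the probes of a gene. A difference of 1 is therefore a doubling. The dimmest level that can be read as expression was taken as the upper quartile of 1394 olfactory and vomeronasal receptor genes, which are silent in heart, and it lay at 1.79. All 34 members stood above it on average, from *Mmrn1* at 2.53 to *Cdh5* at 8.78, and the endothelial markers *Pecam1*, *Cdh5*, *Kdr*, *Tie1*, *Tek* and *Emcn* were all among them. The SD within a genotype, pooled over the 3 genotypes, ran from 0.073 for *Flt4* to 0.388 for *Apln*, with a median of 0.159. The number of arrays limits the precision, since an exact permutation test of 3 against 3 arrays cannot go below p = 0.1.

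The arrays correlated with each other at 0.982 to 0.988 over all genes, and no pair of arrays held more than 8.94% equal values. *Mir133a-2*, the gene next to the deleted *miR-1-1* precursor, stood at 5.63, 6.38 and 5.45 in wild-type, at 4.51, 3.79 and 3.07 in null, and at 6.32, 5.33 and 5.87 in double-heterozygous hearts. *Mir133a-1*, the neighbour of *miR-1-2*, stood at 4.43, 4.00 and 4.22 in double-heterozygous hearts and between 5.42 and 6.37 on the other 6 arrays. Both lie outside the deleted parts and so do not measure the deletions themselves. *Mir1a-1* itself was near or below 1.79 on most arrays, at 1.29, 1.85 and 2.21 in wild-type against 1.06, 0.95 and 1.29 in null hearts. *Xist*, made by the inactive X chromosome of females, stood at 7.74 in wild-type replicate 1 and at 8.31 in double-heterozygous replicate 7, and at 1.22 to 1.96 on the other 7 arrays.

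To compare the members between genotypes, 1 linear model was fitted to all genes with limma, with p-values adjusted by Benjamini-Hochberg over all 22180 genes. No member passed an adjusted p of 0.05 in any of the 3 comparisons, and none passed the thresholds of the study, for which p before adjustment must be under 0.0025 and the fold over 1.5 or under 0.5. Over all genes, 0.018% passed the adjusted p between double-heterozygous and wild-type hearts, and 0 did in the other 2 comparisons. The largest difference between 2 genotypes was 0.63 on the log2 scale, for *Apln*, and 0 members differed by over 1. The differences below are therefore given as values with their spread and unadjusted p, and none is a call. Asked whether a gene differs among the 3 genotypes at all, limma's moderated F test gave an unadjusted p under 0.05 for 3 of 34 members, or 8.82%, beside 8.53% of all genes. These were *Ets1* (unadjusted p = 0.0031, adjusted p = 0.359), *Nrp2* (unadjusted p = 0.0071, adjusted p = 0.421) and *Aplnr* (unadjusted p = 0.032, adjusted p = 0.547) in limma, and 0 members passed the adjusted threshold.

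Between *miR-1-1* null and wild-type hearts the members differed little. Their median log2 difference was -0.047, with 14 members above 0 and 20 below, beside a median of -0.007 over all genes, of which 48.0% were above 0. At an unadjusted p under 0.05, 3 members stood lower in null hearts, the transcription factor *Ets1*, the co-receptor *Nrp2* and the junction protein *Cdh5*, and 0 stood higher. Among all genes 3.15% stood lower at this level and 2.57% higher, and 0.126% passed the study's thresholds. The arrays of the 2 genotypes did not overlap for these 3 genes and *Robo4*, all of them lower in null hearts, as for 4.63% of all genes, and for 0 members that were higher, beside 3.63% of all genes.

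Between double-heterozygous and wild-type hearts, most members stood slightly lower in double-heterozygous hearts. Their median log2 difference was -0.17, with 4 members above 0 and 30 below, beside a median of -0.024 over all genes, of which 44.6% were above 0. At an unadjusted p under 0.05, 6 members stood lower, *Ets1*, *Nrp2*, *Aplnr*, *Gpihbp1*, *Kdr* and *Robo4*, and 0 stood higher. Among all genes 6.15% stood lower at this level and 4.45% higher, and 0.541% passed the study's thresholds. The arrays of the 2 genotypes did not overlap for 8 members that were lower, or 23.5% (*Cdh5*, *Kdr*, *Nrp2*, *Eng*, *Ets1*, *Vwf*, *Robo4* and *Gpihbp1*). The share was 7.95% of all genes, and 15.3% of genes with a mean level in the interquartile range of the members. *Egfl7* was the single member without overlap that stood higher, beside 5.15% of all genes.

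The level of a gene on the array bears on how these medians are read. Of all genes, 4543 had a mean level within the interquartile range of the members, 4.51 to 6.44. In double-heterozygous hearts the median difference of these genes was itself -0.093 from wild-type, with 27.9% of them above 0, and 530 of them stood lower at an unadjusted p under 0.05 against 87 that stood higher. In null hearts the median of the same genes was -0.019. After cyclic loess, which removes differences between arrays that depend on the level, these genes had a median of -0.010 in double-heterozygous hearts and 47.6% were above 0. The members then had a median of -0.095 there, with 8 of 34 above 0, and 3 of them (*Ets1*, *Nrp2* and *Aplnr*) stood lower at an unadjusted p under 0.05, beside 4.25% of all genes under cyclic loess.

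**Figure D1:**
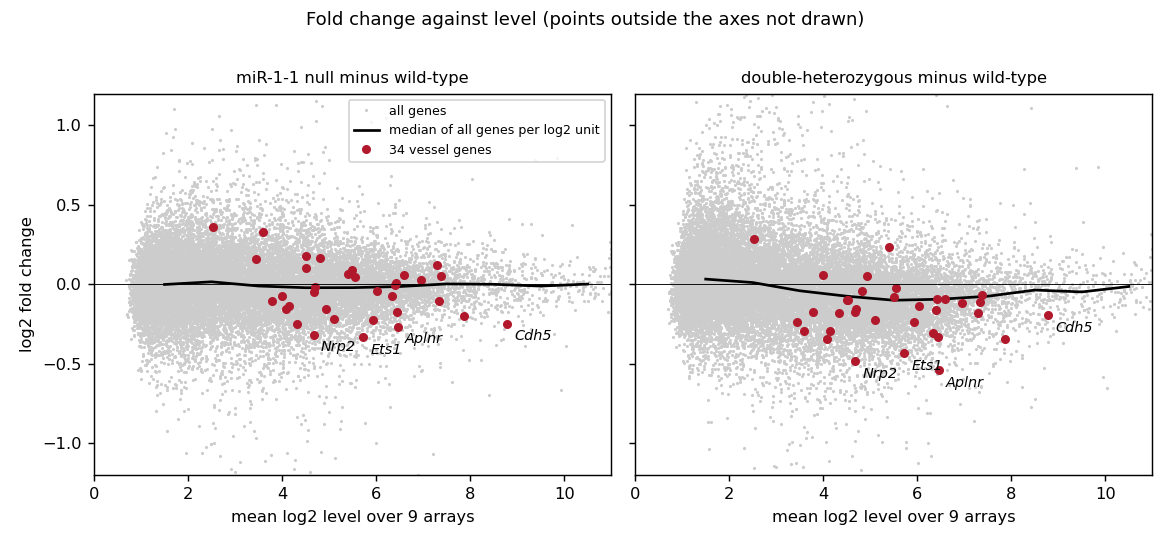
Log2 fold change against mean log2 level for every gene (grey) and the 34 vessel genes (red), with null hearts on the left and double-heterozygous hearts on the right, each minus wild-type. The black line, the median of all genes per log2 unit, stays near 0 on the left and dips below 0 on the right at the levels where most vessel genes lie, and *Nrp2*, *Ets1* and *Aplnr* lie below it in both panels.

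The wild-type arrays are common to both of these comparisons, whose differences are therefore not independent. The direct comparison of double-heterozygous with null hearts does not use these arrays in its means. There the members had a median of -0.14, with 5 above 0 and 29 below, beside -0.018 over all genes, of which 45.4% were above 0, and -0.072 over the 4543 genes of like level. At an unadjusted p under 0.05, 3 members, or 8.82%, stood lower in double-heterozygous hearts (*Eng*, *Apln* and *Vwf*). The share was 3.79% of all genes and 7.15% of the 4543 genes of like level. At the same level 0 members stood higher, beside 3.59% of all genes and 1.39% of those of like level. The arrays did not overlap for *Eng* and *Vwf*, both lower, beside 5.75% of all genes, while 0 members were higher without overlap beside 4.3%, and 0.302% of all genes passed the study's thresholds. None of the members with a low p against wild-type had one here.

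**Figure D2:**
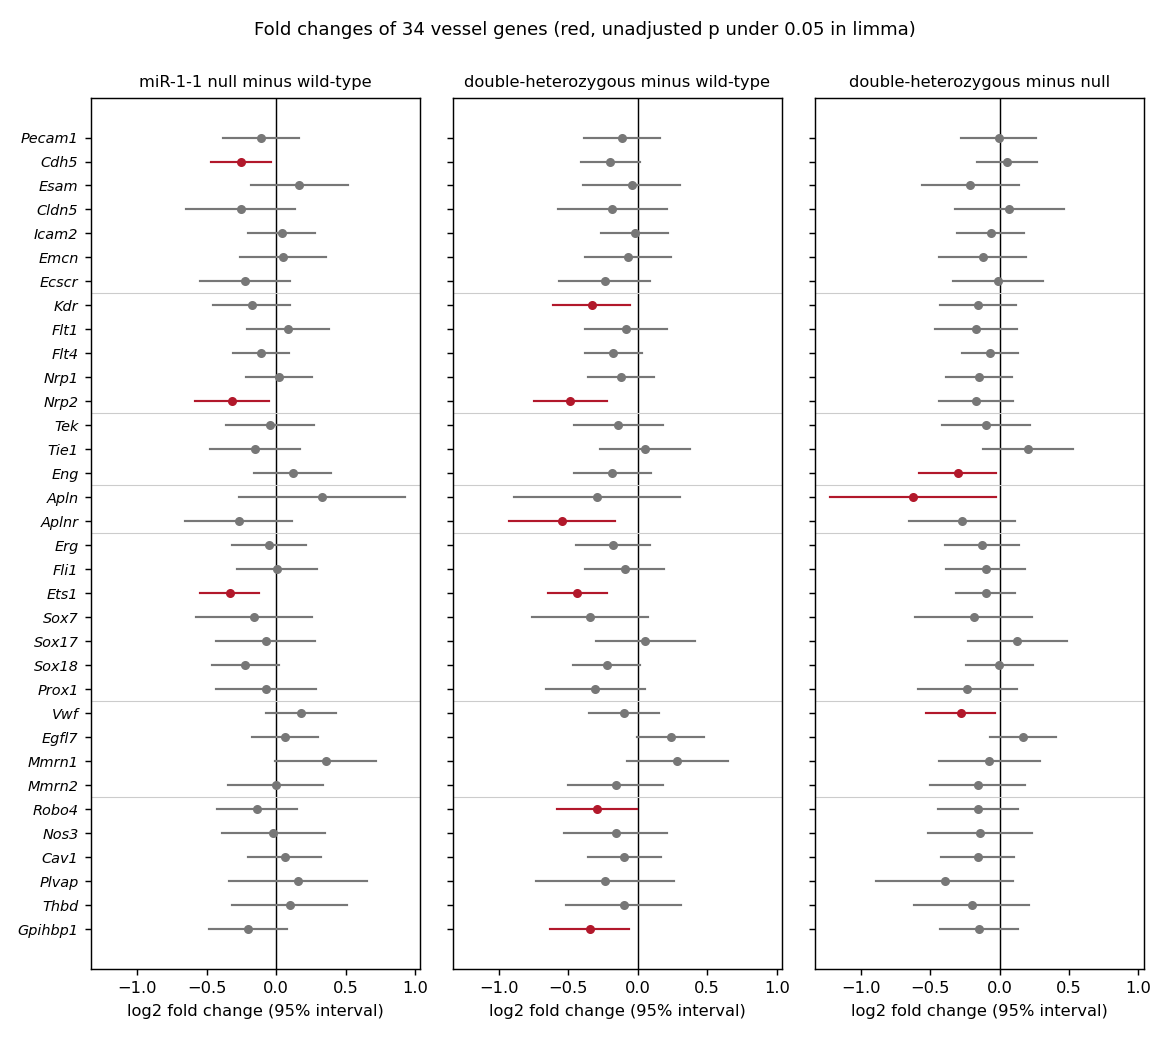
Log2 fold change of each of the 34 vessel genes in the 3 comparisons, with 95% confidence intervals from limma, ordered by role from junctions at the top to blood-facing functions at the bottom; red marks an unadjusted p under 0.05. In the middle panel 30 of 34 points lie left of 0, and on the left 20 do.

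The transcription factors come first, since they act upstream of many other members. *Ets1*, an ETS factor active in endothelial cells and in lymphocytes, stood at 5.93, 6.11 and 5.90 in wild-type, at 5.57, 5.65 and 5.71 in null, and at 5.56, 5.46 and 5.61 in double-heterozygous hearts. Every wild-type array was above all 6 others. The difference was -0.33 ± 0.095 (SE) in null hearts (20.7% lower, limma unadjusted p = 0.0063, adjusted p = 0.752). In double-heterozygous hearts it was -0.43 ± 0.095 (26.0% lower, unadjusted p = 0.0013, adjusted p = 0.189), and double-heterozygous and null arrays overlapped. The other ETS members did not share this pattern. *Erg* and *Fli1*, which are needed for vessel integrity and for early blood and vessel formation, differed from wild-type by -0.05 and 0.01 in null and by -0.18 and -0.09 in double-heterozygous hearts.

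The SoxF factors, which act in arterial and lymphatic specification, gave values in both directions. *Sox7* differed from wild-type by -0.16 in null hearts and by -0.34 in double-heterozygous ones, with overlapping arrays (unadjusted p = 0.096 in the second). *Sox17* differed by -0.07 and 0.05, and *Sox18* by -0.22 and -0.22. *Prox1*, the factor that sets lymphatic identity, differed by -0.07 in null and by -0.30 ± 0.158 (SE) in double-heterozygous hearts (unadjusted p = 0.085). Of these 7 transcription factors, 1 stood above 0 in each mutant, *Fli1* in null and *Sox17* in double-heterozygous hearts. Of genes at the members' level, 44.0% stood above 0 in null and 27.9% in double-heterozygous hearts, beside 48.0% and 44.6% of all genes.

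**Figure D3:**
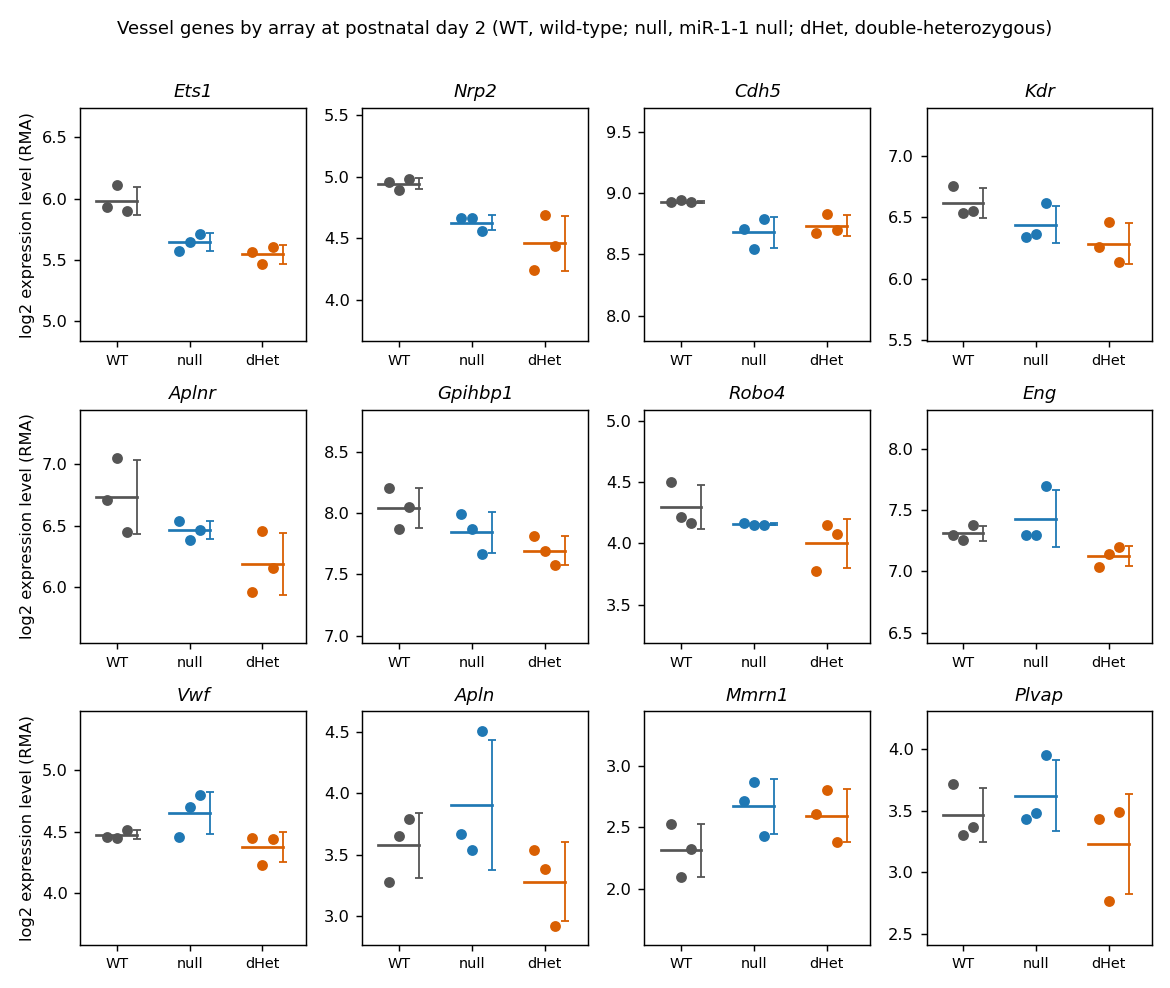
Log2 expression level on each array (points) of 12 vessel genes in wild-type (grey), null (blue) and double-heterozygous (orange) hearts. Lines mark the mean of 3 arrays and bars the SD. The vertical axis has the same span in every panel and is centred on the values of each gene. *Ets1* and *Nrp2* have all 3 wild-type arrays above the other 6, *Cdh5* likewise, and the high *Apln* point is null replicate 6.

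The receptors for VEGF and their co-receptors were each lower in double-heterozygous than in wild-type hearts, 5 of 5, with log2 differences of -0.49 to -0.08. In this comparison 55.3% of all genes and 72.1% of genes at the members' level stood below 0. *Nrp2*, a co-receptor for VEGF-C and for semaphorins on veins and lymphatics, stood at 4.96, 4.90 and 4.98 in wild-type, at 4.66, 4.66 and 4.56 in null, and at 4.24, 4.69 and 4.44 in double-heterozygous hearts. All wild-type arrays were above all others, and the mutants overlapped with each other. The difference was -0.32 ± 0.117 (SE) in null (unadjusted p = 0.024, adjusted p = 0.871) and -0.49 ± 0.117 in double-heterozygous hearts (28.6% lower, unadjusted p = 0.0024, adjusted p = 0.232). *Kdr*, the main signalling receptor for VEGF-A, stood at 6.76, 6.54 and 6.55 in wild-type, at 6.34, 6.37 and 6.61 in null, and at 6.26, 6.46 and 6.14 in double-heterozygous hearts. Only the double-heterozygous arrays were all below wild-type, with a difference of -0.33 ± 0.123 (SE, 20.5% lower, unadjusted p = 0.024, adjusted p = 0.392), and in null hearts it was -0.18. The other 3 receptors had overlapping arrays in both comparisons with wild-type. *Flt1*, which binds VEGF-A as a decoy, differed by 0.09 in null hearts and by -0.08 in double-heterozygous ones. *Flt4*, the VEGF-C receptor of lymphatics, differed by -0.11 and -0.17 (unadjusted p = 0.081 in limma for the second, adjusted p = 0.525), and *Nrp1*, the co-receptor of arteries and capillaries, by 0.02 and -0.12.

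Promoter sequences of *Nrp2*, *Kdr* and *Robo4* are shown because these are the members with an unadjusted p under 0.05 in double-heterozygous hearts for which RefSeq's table for GRCm38.p6 gives a promoter here. The ETS factors among the members bind DNA at the core letters GGAA, and the capitals mark each GGAA on either strand, TTCC being the same letters read on the other strand. Each window runs, 5′ to 3′ on the gene's strand, from 250 bases before the start of the gene to 50 bases after it. *Nrp2* lies on the plus strand at chr1:62703067-62703366 with 1 match, *Kdr* on the minus strand at chr5:75978406-75978705 with 5, and *Robo4* on the plus strand at chr9:37401722-37402021 with 4.
Nrp2: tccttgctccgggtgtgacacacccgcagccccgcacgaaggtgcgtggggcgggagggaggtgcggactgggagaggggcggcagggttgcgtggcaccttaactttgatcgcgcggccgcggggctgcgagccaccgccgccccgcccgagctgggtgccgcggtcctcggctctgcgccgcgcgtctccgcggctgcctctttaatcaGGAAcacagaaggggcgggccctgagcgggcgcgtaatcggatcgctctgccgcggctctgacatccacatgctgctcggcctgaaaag
Kdr: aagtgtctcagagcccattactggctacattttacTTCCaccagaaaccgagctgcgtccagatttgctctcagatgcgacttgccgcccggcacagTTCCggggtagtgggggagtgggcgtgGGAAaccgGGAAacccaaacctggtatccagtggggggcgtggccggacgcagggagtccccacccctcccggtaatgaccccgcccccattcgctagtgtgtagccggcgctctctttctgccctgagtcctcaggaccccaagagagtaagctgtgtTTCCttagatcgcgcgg
Robo4: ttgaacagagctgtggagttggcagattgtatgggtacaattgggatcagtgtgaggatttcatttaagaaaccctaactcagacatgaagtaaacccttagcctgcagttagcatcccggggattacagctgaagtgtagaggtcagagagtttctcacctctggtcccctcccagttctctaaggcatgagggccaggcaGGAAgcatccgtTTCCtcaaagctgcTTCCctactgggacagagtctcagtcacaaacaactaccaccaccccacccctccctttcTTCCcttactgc
Such a short core is found in nearly every promoter. Of 32851 windows of the same 300 bases, 96.0% hold it, with a median of 3 matches, and of the 34 members 17 have a window, 16 of which hold it. *Cldn5* is the one without. With 1 more letter, GGAAG is in 71.4% of all windows and in those of 14 of the 17 members. A match describes the letters, and nothing was measured here about binding.

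The apelin system showed the largest differences of all members. *Aplnr*, the receptor for apelin on sprouting and venous endothelium, stood at 6.71, 7.05 and 6.44 in wild-type, at 6.54, 6.39 and 6.47 in null, and at 5.96, 6.46 and 6.15 in double-heterozygous hearts. Double-heterozygous replicate 8 reached just above wild-type replicate 3, and the other 2 were below every other array. The difference in double-heterozygous hearts was -0.54 ± 0.170 (SE, 31.4% lower, 95% interval -0.93 to -0.16, unadjusted p = 0.010, adjusted p = 0.334). In null hearts it was -0.27, with overlapping arrays. *Apln*, which encodes the ligand and is made by tip cells of growing vessels, stood at 3.28, 3.66 and 3.79 in wild-type, at 3.67, 3.54 and 4.51 in null, and at 3.54, 3.38 and 2.92 in double-heterozygous hearts. The gene varied more within a genotype than any other member. Double-heterozygous hearts were 0.63 ± 0.266 (SE) below null hearts on the log2 scale (unadjusted p = 0.042, adjusted p = 0.667), and this rested on null replicate 6, without which the difference was -0.32.

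Endoglin and the Tie receptors differed in direction. *Eng*, a co-receptor for BMP and TGF-beta ligands, stood at 7.30, 7.26 and 7.38 in wild-type, at 7.30, 7.30 and 7.70 in null, and at 7.04, 7.14 and 7.20 in double-heterozygous hearts. Double-heterozygous arrays lay below all 6 others. Against null the difference was -0.30 ± 0.122 (SE, unadjusted p = 0.034, adjusted p = 0.647), and -0.17 without null replicate 6, the highest array, and against wild-type it was -0.18. *Tek*, the angiopoietin receptor, differed from wild-type by -0.04 in null hearts and by -0.14 in double-heterozygous ones. *Tie1*, its partner without a known high-affinity ligand, differed by -0.15 and 0.05, and neither gene left the spread between arrays.

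Among the junction and adhesion genes, 7 of 7 stood below wild-type in double-heterozygous hearts, with differences of -0.24 to -0.02, and 4 of 7 in null hearts. Of genes at the members' level, 72.1% stood below 0 in double-heterozygous and 56.0% in null hearts, beside 55.3% and 51.9% of all genes. *Cdh5*, which encodes VE-cadherin, stood at 8.92, 8.94 and 8.93 in wild-type, at 8.71, 8.54 and 8.79 in null, and at 8.67, 8.83 and 8.70 in double-heterozygous hearts. All wild-type arrays were above all others. The difference was -0.25 ± 0.095 (SE) in null (16.0% lower, unadjusted p = 0.026, adjusted p = 0.871) and -0.20 ± 0.095 in double-heterozygous hearts (unadjusted p = 0.067, adjusted p = 0.503). The wild-type SD of 0.008 was far below the pooled SD of other members, and limma's moderated spread was used for the test. *Pecam1*, the platelet endothelial adhesion molecule, differed from wild-type by -0.11 in each mutant. *Cldn5*, the tight junction claudin, differed by -0.25 in null hearts and by -0.18 in double-heterozygous ones, and *Ecscr*, a regulator of endothelial migration, by -0.23 and -0.24. *Esam*, an adhesion molecule of tight junctions, differed by 0.17 and -0.04, *Icam2*, a ligand for leukocyte integrins, by 0.04 and -0.02, and *Emcn*, a sialomucin of capillaries and veins, by 0.05 and -0.07. Each of these 6 had overlapping arrays in both comparisons.

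The genes of the blood-facing surface were lower in double-heterozygous hearts, 6 of 6, as were 55.3% of all genes and 72.1% of genes at the members' level. An unadjusted p under 0.05 was given to 2 of the 6, beside 6.15% of all genes and 11.7% of those at the members' level. *Gpihbp1*, which carries lipoprotein lipase across capillary endothelium, stood at 8.20, 7.87 and 8.05 in wild-type, at 8.00, 7.87 and 7.66 in null, and at 7.81, 7.69 and 7.58 in double-heterozygous hearts. Double-heterozygous arrays all lay below wild-type, with a difference of -0.35 ± 0.125 (SE, 21.4% lower, unadjusted p = 0.021, adjusted p = 0.380), with null hearts in between at -0.20. *Robo4*, a receptor that stabilises the endothelial barrier, stood at 4.50, 4.22 and 4.17 in wild-type, at 4.16, 4.15 and 4.15 in null, and at 3.78, 4.15 and 4.08 in double-heterozygous hearts. The lowest wild-type array was close to the highest of the mutants. The difference in double-heterozygous hearts was -0.29 ± 0.127 (SE, unadjusted p = 0.045, adjusted p = 0.457), -0.19 without wild-type replicate 1 and -0.18 without double-heterozygous replicate 7. In null hearts it was -0.14, and the *Robo4* difference in double-heterozygous hearts lost its p under 0.05 in 11 of 20 alternatives.

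The other blood-facing genes overlapped between all genotypes. *Plvap*, which forms the diaphragms of fenestrae and caveolae, stood at 3.72, 3.30 and 3.37 in wild-type, at 3.43, 3.48 and 3.96 in null, and at 3.43, 2.76 and 3.49 in double-heterozygous hearts. Double-heterozygous replicate 8 was low and null replicate 6 high, and the difference between the mutants was -0.39 ± 0.220 (SE, unadjusted p = 0.105). *Nos3*, the endothelial nitric oxide synthase, differed from wild-type by -0.02 in null hearts and by -0.16 in double-heterozygous ones. *Cav1*, the coat protein of caveolae, differed by 0.06 and -0.10, and *Thbd*, the thrombin receptor thrombomodulin, by 0.10 and -0.10.

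Of the secreted and matrix members, 2 of 4 stood above 0 in double-heterozygous hearts and 3 of 4 in null hearts. *Egfl7*, a secreted endothelial protein whose gene hosts *miR-126*, stood at 5.37, 5.30 and 5.24 in wild-type, at 5.34, 5.51 and 5.26 in null, and at 5.41, 5.69 and 5.52 in double-heterozygous hearts. Every double-heterozygous array was above wild-type, by 0.24 ± 0.106 (SE) on average (17.8% higher, unadjusted p = 0.053, adjusted p = 0.479). *Mmrn1*, a matrix protein of lymphatics and platelets, stood at 2.52, 2.09 and 2.32 in wild-type, at 2.72, 2.87 and 2.43 in null, and at 2.61, 2.80 and 2.38 in double-heterozygous hearts. It was 0.36 ± 0.161 (SE) higher in null hearts (unadjusted p = 0.053, adjusted p = 0.880) and 0.28 higher in double-heterozygous hearts, and wild-type replicate 1 overlapped with both. *Vwf*, the carrier of factor VIII and ligand of platelets, stood at 4.46, 4.45 and 4.52 in wild-type, at 4.46, 4.71 and 4.80 in null, and at 4.45, 4.23 and 4.44 in double-heterozygous hearts. The mutants did not overlap, with a difference of -0.28 ± 0.111 (SE, unadjusted p = 0.032, adjusted p = 0.639), which was -0.21 without null replicate 6 or without double-heterozygous replicate 8. Wild-type and double-heterozygous arrays nearly touched. *Mmrn2*, an endothelial matrix protein related to *Mmrn1*, differed from wild-type by 0.00 and -0.16.

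The members were also followed array by array, as deviations from each gene's mean over the 9 arrays. The median deviation over the 34 members was 0.10, 0.061 and 0.016 in wild-type, -0.027, -0.013 and 0.010 in null, and -0.069, -0.0016 and -0.086 in double-heterozygous replicates. The mean deviation of double-heterozygous replicate 8 was -0.051, lower than on any null array (-0.014, 0.0013 and 0.096). Of the 34 members, 8, 8 and 9 had their lowest level of all 9 arrays on double-heterozygous replicates 7, 8 and 9, against 0, 1 and 3 on the wild-type and 3, 2 and 0 on the null replicates. The highest level fell on wild-type replicate 1 for 8 members, on wild-type replicate 2 for 6 and on null replicate 6 for 7. Each gene is counted on a single array, so the genes counted as lowest cannot be shared between arrays. They included *Nrp2*, *Aplnr* and *Robo4* on double-heterozygous replicate 7, *Plvap*, *Emcn* and *Ecscr* on replicate 8, and *Apln*, *Prox1* and *Tek* on replicate 9.

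**Figure D4:**
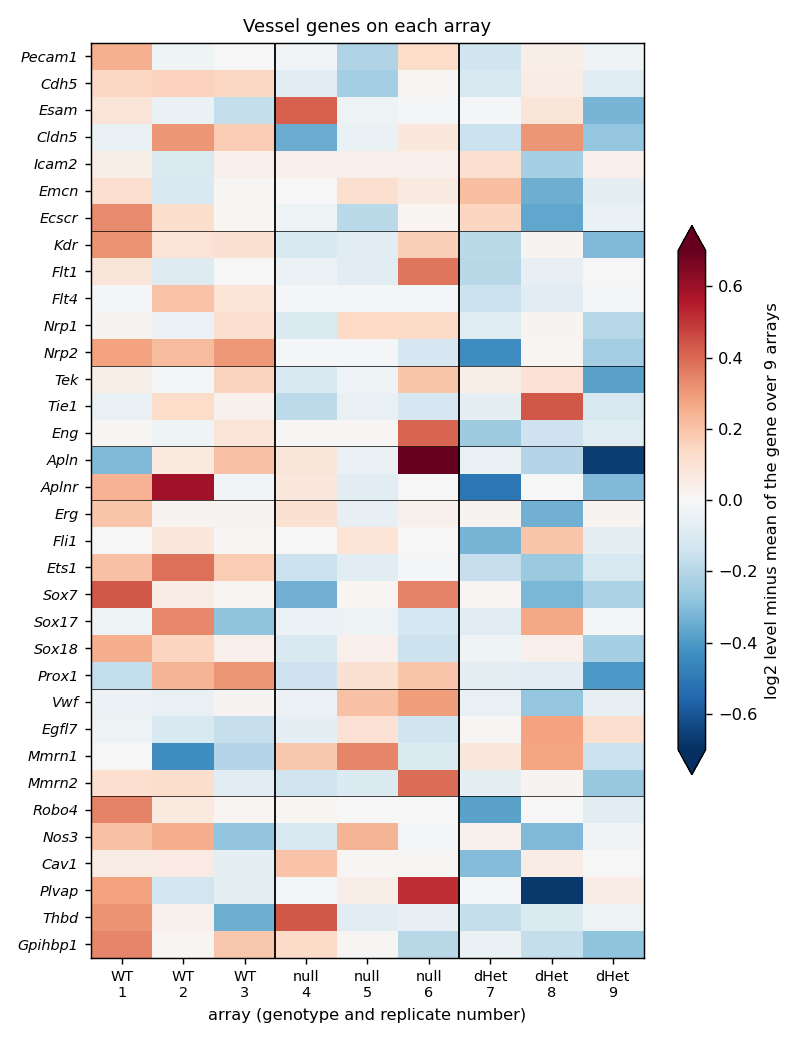
Deviation of each of the 34 vessel genes (rows, by role) from its own mean over 9 arrays, in log2 units, on each array (columns, by genotype and replicate number); red is above and blue below the mean, and the colour scale ends at 0.7. Wild-type replicate 1 is mostly red, double-heterozygous replicates 7 and 9 are mostly blue, replicate 8 is mixed, and *Apln* and *Plvap* are dark red on null replicate 6.

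Deposited values can be equal to the last digit on arrays of 1 genotype, which lowers the spread of a gene. This was so for 8 of 34 members, among them *Nrp2* and *Robo4*, and *Icam2* and *Flt4* had the same value on all 3 null arrays. Such values also recurred across genotypes. The *Icam2* value of 5.59 was also on wild-type replicate 3 and double-heterozygous replicate 9, and the *Flt4* value of 3.77 on wild-type replicate 1 and double-heterozygous replicate 9. The share of all genes with such values was not counted.

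Markers of other cell types were read on the same arrays. Among all genes, 6.15% stood lower in double-heterozygous than in wild-type hearts at an unadjusted p under 0.05. This is the share to set beside the counts of lower markers in that comparison. Of 8 macrophage markers, 7 were above background and *Cd14* was at or below it, and 5 stood lower in double-heterozygous than in wild-type hearts at an unadjusted p under 0.05. Their summed level on the linear scale was 132 to 177 in wild-type, 127 to 147 in null and 108 to 113 in double-heterozygous hearts. Of 8 fibroblast markers, all above background, 3 stood lower in double-heterozygous hearts at this level, with a sum of 2838 to 2995 in wild-type, 2813 to 2935 in null and 2487 to 3027 in double-heterozygous hearts. Of 8 pericyte and smooth muscle markers, all above background, 2 stood lower, with sums of 736 to 856, 662 to 808 and 666 to 847. The sum of 10 cardiomyocyte markers was 15992 to 16463 in wild-type, 16539 to 17073 in null and 16149 to 16357 in double-heterozygous hearts. The 5 platelet markers measured summed to 63.5 to 81.1, 64.3 to 71.6 and 50.2 to 65.3, and of 2 erythroid markers *Epb42* was at or below background. Of 4 brown fat markers *Elovl3* was at or below background. In double-heterozygous hearts, where 55.3% of all genes stood below 0, 4 of 4 of these markers did, and none had an unadjusted p under 0.05. Their sum was 115, 87.6 and 60.5 in wild-type replicates 1 to 3, 69.8 to 92.4 in null and 56.4 to 75.9 in double-heterozygous hearts. Wild-type replicate 1 was thus the highest array both for these markers and for the members' median, and without it *Kdr*, *Gpihbp1* and *Robo4* in double-heterozygous hearts had an unadjusted p above 0.05. Without this array *Ets1*, *Nrp2* and *Aplnr* still stood lower there at an unadjusted p under 0.05 in limma, and *Flt4* and *Prox1* joined them. The same array also had high *Xist*. The 7 cell cycle markers ranged widely within wild-type hearts, with sums of 491 to 848. Their sums were 479 to 668 in null and 706 to 816 in double-heterozygous hearts. Between these mutants 7 of 7 stood higher in double-heterozygous hearts, beside 45.4% of all genes. Of the 7, 2 did so at an unadjusted p under 0.05, beside 3.59% of all genes. The part of these cells in the vessel gene values was not tested.

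Markers of vessel types other than the members were counted in the same fit. The lymphatic list had 7 genes measured, of which *Prox1*, *Flt4* and *Mmrn1* are members. In double-heterozygous hearts 6 of 7 were below 0, as were 55.3% of all genes and 72.1% of genes at the members' level. The summed level of the list there was 170 to 178, below the 201 to 215 of wild-type and the 186 to 215 of null hearts. On the linear scale bright genes weigh most in such a sum. *Prox1*, with a mean level of 6.33, is among them and is also made by cardiomyocytes, and a sum without it was not taken. How often sums of other genes fail to overlap was not counted. None of the 7 had an unadjusted p under 0.05. The heart capillary list had 4 of 12 lower at this level in double-heterozygous hearts, *Gpihbp1* among them, beside 6.15% of all genes and 11.7% of genes at the members' level. The list holds genes brighter than that range, such as *Gpihbp1* with a mean level of 7.86, so the 11.7% is not matched to its level. The median of the list was -0.29, and its summed level overlapped, at 4223 to 4809 in wild-type and 4146 to 4543 in double-heterozygous hearts. The arterial list of 8 genes had 0 at this level, with a median of -0.05, the venous list of 5 had 0, with -0.13, and the endocardial list of 7 had 0, with 0.06. In the venous list *Ackr1* and *Selp* and in the endocardial list *Hapln1* were at or below background.

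Beyond the members, 99 further vessel genes were measured as ligands, receptors, Notch and ephrin genes, transcription factors and vessel type markers. With an unadjusted p under 0.05, 4 of them stood higher in null hearts and 3 lower, with a median of 0.00, and in double-heterozygous hearts 2 stood higher and 9 lower, with a median of -0.09. Double-heterozygous against null hearts gave 0 higher and 6 lower. Read against all genes, the shares that stood lower were 3.03% beside 3.15% in null hearts, 9.09% beside 6.15% in double-heterozygous hearts, and 6.06% beside 3.79% between the mutants. The shares that stood higher were 4.04% beside 2.57%, 2.02% beside 4.45%, and 0 beside 3.59%. Among genes at the members' level, the shares that stood lower were 3.59%, 11.7% and 7.15% in these comparisons, so the last 2 exceeded those of the 99 genes. The shares of these genes that stood higher were 1.92%, 1.92% and 1.39%. The 99 genes themselves were not matched for level. No gene of these lists passed an adjusted p of 0.05.

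In null hearts the lowest unadjusted p values belonged to *Tcf15*, a factor of capillaries that take up fatty acids (-0.39, limma adjusted p = 0.845), and *Heyl*, a Notch target (-0.34, adjusted p = 0.868). *Epas1*, a hypoxia-inducible factor, stood at -0.28. *Angpt1*, the ligand of *Tek*, stood higher by 0.62 (adjusted p = 0.871), but its second probe set gave 0.00. *Sema3a*, a ligand for neuropilins, stood higher by 0.34 and *Icam1*, a leukocyte adhesion molecule, by 0.36.

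In double-heterozygous hearts *Procr*, the protein C receptor of endothelium, had the lowest p of these lists. It stood at 3.88, 3.47 and 3.59 in wild-type and at 4.03, 4.14 and 4.21 in double-heterozygous hearts, higher by 0.48 ± 0.116 (SE, unadjusted p = 0.0023, adjusted p = 0.232). *Heyl* stood at -0.39 from wild-type, *Aqp1*, a water channel of capillaries, at -0.46 and *Ptprb*, the phosphatase that acts on *Tek* and VE-cadherin, at -0.40. *Lpl*, the lipase that *Gpihbp1* carries, stood at -0.33, with -0.24 on its second probe set. *Elk3*, an ETS factor, stood at -0.32 ± 0.128 (SE, limma adjusted p = 0.431), with every double-heterozygous array below wild-type. Between double-heterozygous and null hearts, *Tgfbr2*, a TGF-beta receptor, stood at 4.67, 4.40 and 4.78 against 5.09, 4.99 and 5.22, with a difference of -0.48 ± 0.115 (SE, unadjusted p = 0.0022, adjusted p = 0.448). *Klf4*, a factor induced by flow, stood at -0.36 in this comparison, *Elk3* at -0.33, *Ednrb*, an endothelin receptor, at -0.38, *Aqp1* at -0.32 and *Ptprb* at -0.29.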

How the data were processed

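RNA from neonatal hearts of 3 genotypes was amplified and hybridised to Affymetrix mouse Gene ST arrays, 9 in all. The authors deposited log2 expression levels per probe set after RMA. Affymetrix Power Tools 1.12.0 is also listed in the submitters' processing notes. The build behind the array's annotation was not given in the sources used here. Of 41345 probe sets, 23521 were listed for 1 symbol, 1820 for more than 1 and 16004 carried no name, and 23328 of the first were matched by gene ID to RefSeq's mouse gene table. Promoter sequences are from RefSeq, GRCm38.p6.

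The deposited values were used without further normalisation or filter. With R 4.3.3 and limma 3.58.1, all 9 arrays were fitted with a mean per genotype (lmFit and eBayes), and p-values were adjusted by Benjamini-Hochberg over all 22180 genes. The fit was tested on simulated data. Exact permutation tests were two-sided. Equal values were counted within a tolerance of 1e-06, and intervals are at 95%. Figures were drawn with Python 3.11.15 and matplotlib 3.10.9.

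All members are named. Values on each array are given for members with an unadjusted p under 0.05 in a comparison or among the 3 largest differences of one, and for *Egfl7*, chosen after its values were seen. Of the other vessel lists, at most the 6 genes with the lowest p under 0.05 in each comparison are named. The members and lists were chosen with earlier results of these data known. The genes of the *miR-1* loci were added to the lists after the files were read. Alternatives were the 2 genotypes compared alone, eBayes with a trend, the methods' t-test (the study's unpaired test), a filter at the median level, cyclic loess, array weights, *Xist* as a covariate, other uses of probe sets and leaving out each array in turn.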

Additional observations from a re-analysis of the deposited data

How the results depend on the processing

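No member passed an adjusted p of 0.05 or the study's thresholds in any of the 3 comparisons under any alternative, the methods' t-test included. For the 12 differences with an unadjusted p under 0.05, 20 alternatives gave 240 values, of which 193 kept their side of that level, 47 went above it and 0 changed direction. Many of these values could not change direction. The fit of 2 genotypes, other eBayes settings, the t-test and the median filter leave the difference itself unchanged. So does leaving out an array of the third genotype. No member had a second probe set for it alone, so other uses of probe sets left the members' values as they were. *Ets1* in both mutants and *Nrp2* in double-heterozygous hearts stayed under an unadjusted p of 0.05 throughout, and *Aplnr* in double-heterozygous hearts exceeded it with the methods' t-test alone. Of double-heterozygous against wild-type, *Kdr* exceeded it with that t-test, with cyclic loess and without wild-type replicate 1, double-heterozygous replicate 7 or double-heterozygous replicate 9, and *Gpihbp1* with cyclic loess and without wild-type replicate 1 or double-heterozygous replicate 9. *Robo4* exceeded it most often, in 11 of 20, which were the omission of any 1 array other than wild-type replicate 3 or double-heterozygous replicate 8, and the fits with only the 2 genotypes fitted, that t-test, cyclic loess and *Xist* as a covariate. Between the mutants, *Apln* exceeded it in 8, *Eng* in 7 and *Vwf* in 6, each of them without null replicate 6 (-0.32, -0.17 and -0.21), without double-heterozygous replicate 8, with only the 2 genotypes fitted and with that t-test. In null hearts *Cdh5* exceeded it without wild-type replicate 2 or 3 or null replicate 5, and *Nrp2* without wild-type replicate 1 or 3 or null replicate 6.

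Cyclic loess moved the medians to -0.095 for double-heterozygous against wild-type (8 members above 0, 3 lower and 1, *Egfl7*, higher at an unadjusted p under 0.05) and to -0.078 for double-heterozygous against null (9 above 0, 1 lower). By construction it removes shifts that depend on level. *Egfl7* also counted as the 1 member higher in double-heterozygous hearts with a trend in eBayes and among genes at or above the median level. *Mmrn1* counted as the 1 member higher in null hearts with array weights and with *Xist* as a covariate. The members lower in double-heterozygous than in null hearts numbered 0 when only these 2 genotypes were fitted and 0 with the methods' t-test, and the cause was not tested.

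Leaving out each array in turn, the median of null against wild-type ranged from -0.081 to 0.0050 (turning above 0 without null replicate 4), members above 0 from 11 to 17, members higher from 0 to 1 and lower from 2 to 3. For double-heterozygous against wild-type the median ranged from -0.18 to -0.13, members above 0 from 3 to 7, higher from 0 to 1 and lower from 3 (without double-heterozygous replicate 9) to 8. For double-heterozygous against null the ranges were -0.17 to -0.10, 5 to 8 above 0 and 0 (without null replicate 6) to 3 lower. No paired analysis was possible because the genotypes share no replicate numbers.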

Other observations

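Probe sets listed for a member together with another gene were left out of the comparisons. The probe set of *Rasip1* and *Izumo1* stood at 5.83 ± 0.10 (SD, n = 3) in wild-type, 5.80 ± 0.08 in null and 5.73 ± 0.14 in double-heterozygous hearts. That of *Ets1* and *Taok1* stood at 6.97 ± 0.07, 6.94 ± 0.08 and 6.80 ± 0.20, with 6.57 on double-heterozygous replicate 7 and 6.87 to 7.06 on the other 8 arrays. That of *Egfl7* and *Mir126a* stood at 1.53, 1.59 and 1.46, under the background level of 1.79.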
